A study of Homo sapiens with 24 samples.

Results

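The genes described here are 59 protein-coding genes of human chromosome 18, of 58138 gene names in the count tables, chosen by a mildly lower RNA level in a cell line named RPRD1B_FL than in its parent line. RPRD1A, one of the genes the study silenced, lies on the long arm of the same chromosome and is not in the list. The choice rested on 2 contrasts, RPRD1B_FL against FLP and RPRD1B_FL_TET against FLP_TET, so the values in these contrasts are given as a description with no test. No threshold was named for membership: PSMG2 and SEH1L, the members with the highest mean of both contrasts, stood at 0.11 and 0.00 on the log2 scale. By position, 25 members lie on the short arm (USP14 to RNMT), 17 on the proximal long arm (ROCK1 to RNF138), 6 beside RPRD1A (MAPRE2, INO80C, GALNT1, C18orf21, SLC39A6 and ELP2) and 11 on the distal long arm (PIK3C3 to VPS4B).

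RNA was sequenced from its polyadenylated end (QuantSeq 3′ REV libraries) in 24 samples, 2 in each of 12 groups. HEK293T cells, a human embryonic kidney line that carries the SV40 large T antigen, made up 8 groups: control, RPRD1B_KD, RPRD1A_KD, RPRD2_KD, RPRD1A_RPRD1A_KD, RPRD1A_RPRD2_KD, RPRD1B_RPRD2_KD and RPRD1A_RPRD1B_RPRD2_KD, all collected 48 h after siRNA transfection; the group written RPRD1A_RPRD1A_KD is used as labelled. Flp-In T-REx 293 cells, a related kidney line with a tetracycline-inducible insertion site, made up the other 4: FLP, called the parent line here because both carry the same cell line name, and the RPRD1B_FL line, each untreated and, under the names FLP_TET and RPRD1B_FL_TET, after 48 h with tetracycline. The labels do not spell out FL, say whether the line is 1 clone, or say whether replicates came from separate cultures, so p-values measure the spread between these samples, which may be technical.

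RPRD1A, RPRD1B and RPRD2 bind the carboxy-terminal tail of the largest subunit of RNA polymerase II, the repeat tail whose phosphorylation accompanies the steps of transcription, and RPRD1A and RPRD1B associate with phosphatases that act on it. A steady-state RNA level reflects both synthesis and decay of a transcript. Lines of the 293 family carry abnormal chromosome numbers, and DNA copy number was not measured here. Chromosome 18 is one of the gene-poor human chromosomes, and its genes belong to many pathways.

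Gene-assigned counts ranged from 1817246 to 3135625 per sample in HEK293T and from 2342969 to 3531106 in Flp-In, so that 3 counts corresponded to between 0.85 and 1.65 CPM, the count scaled to a common library total. All 59 members passed the filter on low counts. One library stood apart: the second RPRD1A_RPRD2_KD sample lay at -50.7 on the first principal component of the HEK293T samples, against -2.41 to 11.4 for the other 15. The Flp-In libraries differed in how their counts followed the GC content of transcripts, with rank correlations across genes from -0.554 to 0.615, and the members had a median transcript GC content of 41.1% against 47.9% over all genes tested. Of the 6 293-cell markers, VIM, NEFL, KRT8 and KRT18 were lower in every HEK293T sample than in every Flp-In sample, NEFM was higher in every one, at 4.58 to 20.4 CPM against 0.762 to 3.8 CPM, and PAX2 overlapped. The keratinocyte markers KRT5 and KRT14 were at 0 in every sample. The summed level of the liver markers ALB and APOA2 was 0 to 0.392 CPM in HEK293T and 0 to 0.381 CPM in Flp-In, and that of the endothelial markers PECAM1 and CDH5 was 0 to 0.675 CPM and 0 CPM.

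The stretch around RPRD1A holds both genes that differed between the cell families and genes that did not. RPRD1A, SLC39A6 and GALNT1 were called higher in the HEK293T control than in FLP, and MAPRE2 was not called. The 250 bases upstream of these 4 genes are shown for comparison. They are read 5′ to 3′ on the strand of the gene, from RefSeq (GRCh38.p14), at chr18:36067560-36067809, minus strand, chr18:36129341-36129590, minus strand, chr18:35581490-35581739, plus strand and chr18:34976777-34977026, plus strand. In GENCODE the gene GALNT1 starts at 35581117, so its window lies inside the gene, and the other windows span the start of theirs. Capitals mark TGACGTCA, the palindrome bound by CREB family factors. None of these 4 windows held a CCAAT box, a TATAAA box or the YY1 motif GCCATCTTG.
RPRD1A: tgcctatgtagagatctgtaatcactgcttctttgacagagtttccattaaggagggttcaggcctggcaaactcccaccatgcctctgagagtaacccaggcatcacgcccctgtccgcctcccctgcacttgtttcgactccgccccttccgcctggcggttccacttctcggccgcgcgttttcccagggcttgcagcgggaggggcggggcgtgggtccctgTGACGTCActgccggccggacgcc
SLC39A6: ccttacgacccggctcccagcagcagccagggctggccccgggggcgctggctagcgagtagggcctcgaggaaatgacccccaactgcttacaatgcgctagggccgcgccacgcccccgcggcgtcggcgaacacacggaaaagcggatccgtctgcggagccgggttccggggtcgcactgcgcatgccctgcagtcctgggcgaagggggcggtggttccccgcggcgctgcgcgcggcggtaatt
GALNT1: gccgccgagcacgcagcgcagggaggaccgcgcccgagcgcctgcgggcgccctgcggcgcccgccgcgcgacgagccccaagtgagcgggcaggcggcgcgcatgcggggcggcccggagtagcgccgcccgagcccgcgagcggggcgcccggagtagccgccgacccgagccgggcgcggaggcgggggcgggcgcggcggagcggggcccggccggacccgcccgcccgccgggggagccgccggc
MAPRE2: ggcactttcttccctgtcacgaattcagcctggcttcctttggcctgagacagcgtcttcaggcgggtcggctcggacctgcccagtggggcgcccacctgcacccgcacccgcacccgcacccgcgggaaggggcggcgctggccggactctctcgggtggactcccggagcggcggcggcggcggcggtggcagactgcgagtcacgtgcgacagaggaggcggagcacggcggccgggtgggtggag

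TGACGTCA occurred at 1 place upstream of RPRD1A and not in the windows of SLC39A6, GALNT1, MAPRE2, INO80C or ELP2. Of the 52 members with a RefSeq promoter, 5 held it (9.62%), namely THOC1, NDC80, CHMP1B, TAF4B and TXNL1, against 1.65% of 35116 promoters of the same length; these 5 were named after the search. The GC box GGGCGG, searched on both strands, was in 39 of the 52 members (75%) and in 42.6% of all promoters. The window held 5 copies for GALNT1, 2 each for RPRD1A and ELP2, and 1 each for SLC39A6, MAPRE2 and INO80C. CCAAT was in 14 of 52 (26.9%) against 32%, and TATAAA in 2 of 52 (3.85%) against 10.7%. GCCATCTTG, bound by YY1, was in 1 of 52 (1.92%) against 0.601%. The 35116 promoters were not limited to genes that passed the filter on low counts, as all members did, nor to 1 start per gene. These shares thus set unlike sets side by side, and no difference between them was tested. Both strands were searched for every motif, and a match is not a measured binding site. For the members the search kept 1 RefSeq start per gene name. For some of them, such as CDH2, TCF4, PTPN2, ABHD3 and CABLES1, the window lies inside the gene as placed by GENCODE. The same holds for the neighbours GALNT1, INO80C and ELP2.

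In the RPRD1B_FL line the median of the members was lower than in the parent line in each of the 4 stretches of the chromosome, and so was that of the chromosome 18 genes outside the list. Without tetracycline the median log2 fold change was -0.26 over the 59 members, -0.29 on the short arm, -0.26 on the proximal long arm, -0.27 beside RPRD1A and -0.22 on the distal long arm. With tetracycline the medians were -0.21, -0.19, -0.27, -0.35 and -0.21 in the same order. The 118 other chromosome 18 genes tested had medians of -0.29 without and -0.29 with tetracycline, and all 11948 genes tested had medians of 0.01 and 0.00. In all, 55 of 59 members were below 0 without tetracycline and 52 of 59 with it, where 49.1% and 49.4% of all genes were. By median, chromosome 18 was the second lowest of 23 chromosomes in both contrasts, at -0.27 and -0.26, after chromosome 21 at -0.73 and -0.70. Adjusting for transcript GC content left the members at -0.20 and -0.22. Single libraries moved several of these medians. Without tetracycline the neighbours were at -0.13 without the first FLP sample and -0.16 without the first RPRD1B_FL sample, and the proximal long arm at -0.44 without the second FLP sample. With tetracycline the distal long arm was at -0.07 and the proximal at -0.17 without the first RPRD1B_FL_TET sample, the distal at -0.09 and the neighbours at -0.22 without the first FLP_TET sample, and the members at -0.33 and the short arm at -0.29 without the second RPRD1B_FL_TET sample.

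**Figure D1:**
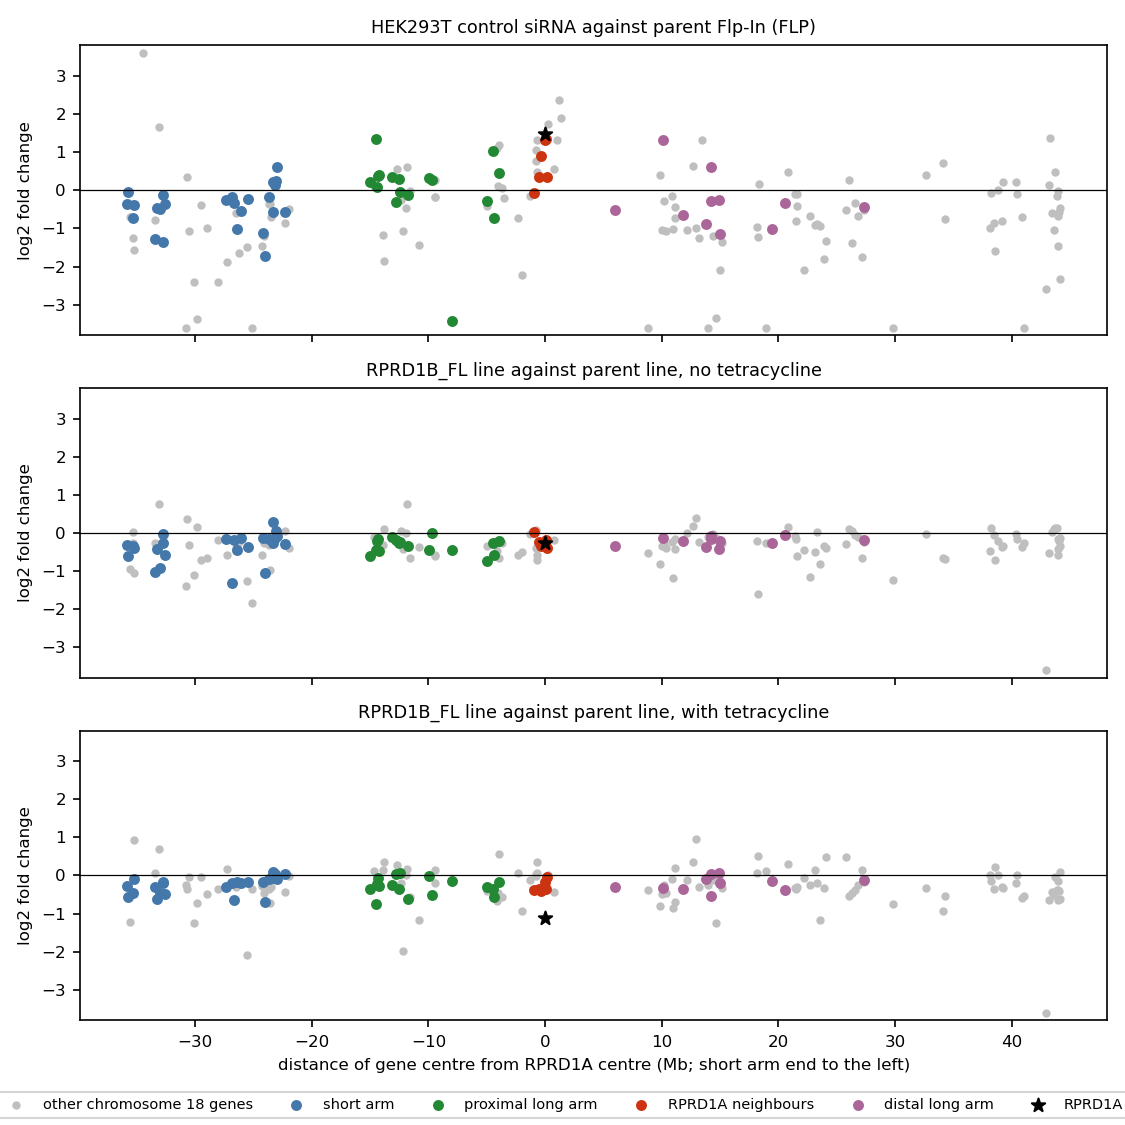
Log2 fold change (vertical axis) of each chromosome 18 gene against its distance from RPRD1A in Mb (horizontal axis), for HEK293T control against FLP and for the RPRD1B_FL line against its parent without and with tetracycline; colours are the 4 position classes, grey the other genes, and values beyond the axis are drawn at its edge. In the lower panels the members lie mostly below 0 along the whole chromosome, with medians of -0.26 and -0.21; in the upper panel the genes beside RPRD1A have a median of 0.62 and the short arm one of -0.36.

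**Figure D2:**
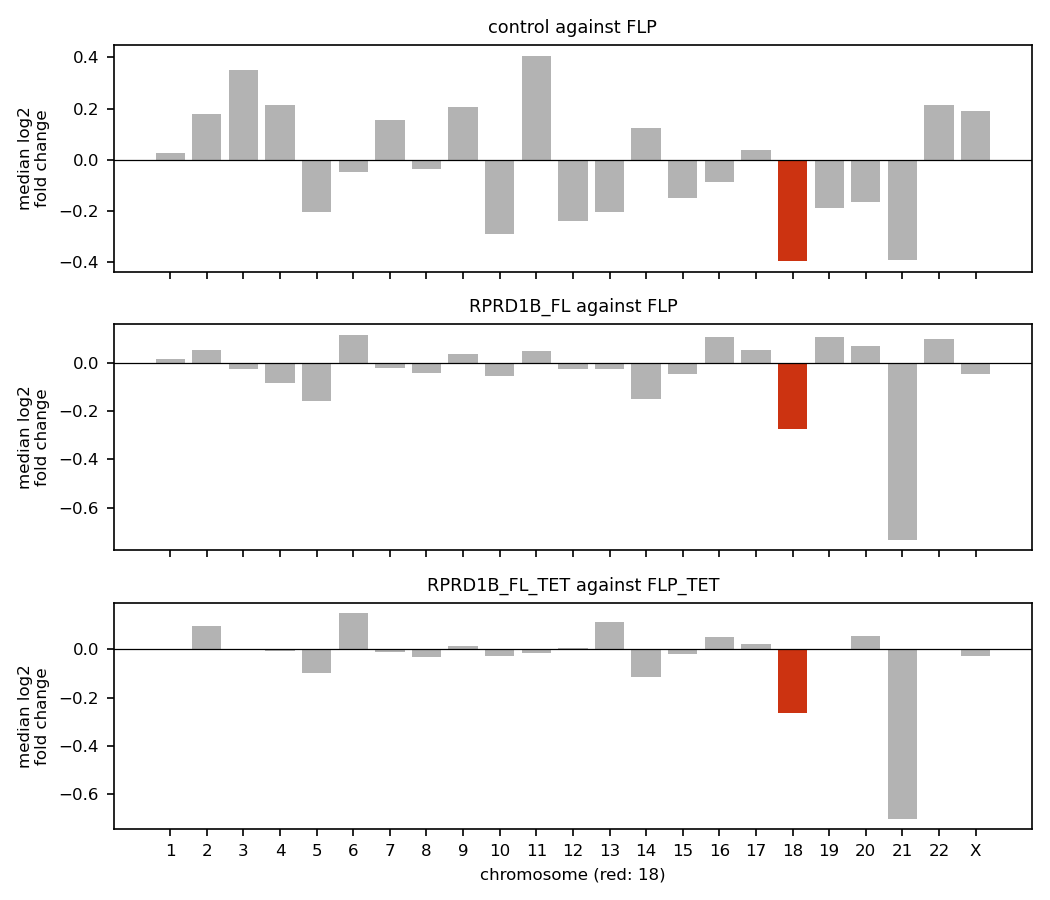
Median log2 fold change over the genes of each chromosome (bars) in the same 3 contrasts, with chromosome 18 in red. Chromosome 18 is at -0.40 for control against FLP, the lowest of 23, and at -0.27 and -0.26 in the line contrasts, where chromosome 21 is lower.

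Sample by sample, the shift was small and the line groups did not overlap. These samples also chose the list, so their separation gives no support of its own. In the share of counts it was narrow, between 0.367% in the second RPRD1B_FL sample and 0.373% in the second FLP_TET sample. The members took 0.430% and 0.407% of all gene counts in FLP and 0.378% and 0.373% in FLP_TET, against 0.329% and 0.367% in RPRD1B_FL and 0.291% and 0.347% in RPRD1B_FL_TET. The median deviation of the members from their mean over the Flp-In samples was 0.24 and 0.12 in FLP, 0.07 and 0.04 in FLP_TET, -0.11 and -0.07 in RPRD1B_FL, and -0.20 and -0.12 in RPRD1B_FL_TET (log2). For 12 of 59 members all 4 samples of the RPRD1B_FL line were below all 4 parent samples, where 4.85% of all genes were, and for 0 members were they all above, where 4.03% of all genes were; both counts come from the contrasts that chose the list. The 12 comprised 6 short arm, 3 proximal, 1 neighbouring and 2 distal genes.

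On the short arm the lowest members were IMPA2, ANKRD12 and LPIN2. IMPA2, an inositol monophosphatase, was at 12.5 and 15.2 CPM in FLP and 6.56 and 6.85 CPM in RPRD1B_FL, a log2 fold change of -1.05, and at 11.4 and 10.2 CPM in FLP_TET and 9.14 and 4.0045 CPM in RPRD1B_FL_TET, a log2 fold change of -0.70. Every RPRD1B_FL line sample was below every parent sample. ANKRD12, an ankyrin-repeat cofactor that binds nuclear receptor coactivators, was at 31.2 and 17.8 CPM in FLP and 11.3 and 7.99 CPM in RPRD1B_FL (log2 fold change -1.31), but at 8.01 and 8.25 CPM in FLP_TET and 6.09 and 8.45 CPM in RPRD1B_FL_TET (-0.19). Among the Flp-In samples only the untreated FLP ones were high, and the 16 HEK293T samples ran from 10.1 to 31.2 CPM. It was the 1 member that edgeR called in RPRD1B_FL against FLP (adjusted p under 0.05), where 1.18% of all genes were, and with tetracycline 0 members were, where 1.11% of all genes were; nothing is read from these counts, since both contrasts chose the list. LPIN2, a phosphatidate phosphatase, had log2 fold changes of -0.93 and -0.47. At the other end, SEH1L, a nuclear pore subunit, stood at 0.04 and -0.04, and PSMG2, a proteasome assembly chaperone, at 0.27 and -0.05.

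On the proximal long arm ESCO1, a cohesin acetyltransferase, was lowest, with log2 fold changes of -0.46 without and -0.75 with tetracycline. It was weakly expressed in Flp-In, at 6.84 and 2.87 CPM in FLP, 2.19 and 4.57 CPM in RPRD1B_FL, 4.93 and 4.62 CPM in FLP_TET and 3.81 and 1.78 CPM in RPRD1B_FL_TET, so that the untreated groups overlapped. B4GALT6, a lactosylceramide synthase, was at 15.6 and 16.6 CPM in FLP against 10.2 and 11.4 CPM in RPRD1B_FL (-0.57), and at 16.01 and 9.58 CPM in FLP_TET against 8.76 and 8.90 CPM in RPRD1B_FL_TET (-0.56). DSC2, a desmosomal cadherin, had log2 fold changes of -0.74 and -0.31. NPC1, a lysosomal cholesterol exporter, was at -0.24 and 0.06, and CABLES1, which binds cyclin-dependent kinases, at -0.20 and 0.03.

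Beside RPRD1A, GALNT1, which starts mucin-type O-glycosylation, was at 40.3 and 31.0 CPM in FLP against 23.3 and 32.7 CPM in RPRD1B_FL (log2 fold change -0.33), and at 33.0 and 30.7 CPM in FLP_TET against 23.99 and 24.5 CPM in RPRD1B_FL_TET (-0.41). SLC39A6, a zinc importer, was at 48.7 and 48.4 CPM in FLP against 43.0 and 42.3 CPM in RPRD1B_FL (-0.18), and at 57.6 and 46.9 CPM in FLP_TET against 37.7 and 45.4 CPM in RPRD1B_FL_TET (-0.35). It was the 1 neighbour whose line groups did not overlap at all. INO80C, a subunit of the INO80 chromatin remodeller, had log2 fold changes of -0.23 and -0.34, C18orf21 of -0.31 and -0.17, ELP2, an Elongator subunit, of -0.40 and -0.03, and MAPRE2, which binds growing microtubule ends, of 0.01 and -0.39. RPRD1A itself was at 64.3 and 49.0 CPM in FLP against 47.4 and 45.7 CPM in RPRD1B_FL (-0.27), and at 57.9 and 54.2 CPM in FLP_TET against 27.0 and 25.4 CPM in RPRD1B_FL_TET (-1.11, SE 0.20). RPRD1A was thus further from 0 with tetracycline than each of its 6 listed neighbours, whose log2 fold changes ran from -0.41 to -0.03.

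On the distal long arm the lowest means belonged to CXXC1, PIK3C3 and SMAD2. CXXC1, the CpG-binding subunit of histone H3 lysine 4 methyltransferase complexes, was at 40.7 and 43.6 CPM in FLP against 36.8 and 38.1 CPM in RPRD1B_FL (-0.17). With tetracycline it was at 59.7 and 64.7 CPM in FLP_TET against 58.6 and 26.7 CPM in RPRD1B_FL_TET (-0.54), where 1 of the 2 RPRD1B_FL_TET samples was low and the other was close to FLP_TET. PIK3C3, the class III phosphatidylinositol kinase of autophagy, was at 33.8 and 34.1 CPM in FLP, 26.6 and 26.6 CPM in RPRD1B_FL, 30.5 and 27.7 CPM in FLP_TET and 24.8 and 23.1 CPM in RPRD1B_FL_TET (-0.35 and -0.29), with all 4 parent samples above all 4 others. SMAD2, a transducer of TGF-beta signals, had log2 fold changes of -0.22 and -0.35. VPS4B, an ATPase that recycles the membrane-cutting ESCRT-III machinery, was at -0.20 and -0.11, and MBD1, a methyl-CpG binding protein, at -0.07 and 0.03.

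Sorted by role instead of position, each class of members had a median below 0 in both contrasts, and differences between classes were not tested. Without tetracycline the medians were -0.22 for the 4 genes of TGF-beta family signalling (TGIF1, TWSG1, SMAD2 and SMAD4), -0.25 for 8 of transcription and chromatin, -0.17 for 10 of chromosomes and cell division, -0.29 for 5 of RNA processing and ribosome assembly, and -0.19 for 4 of protein turnover. They were -0.22 for 8 of membrane traffic and lipid transport, -0.36 for 10 of metabolism and transport, -0.36 for 6 of adhesion and contractility and -0.43 for 4 of other signalling. With tetracycline the 9 medians ran from -0.42, in TGF-beta family signalling, to -0.13, in protein turnover.

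Tetracycline by itself called few members, and both of its contrasts use samples that also chose the list. In the parent line 1 member of 59 was called lower and 0 higher with edgeR's quasi-likelihood test and Benjamini-Hochberg adjustment, where 0.795% and 0.226% of all genes were. ANKRD12 fell from 31.2 and 17.8 CPM in FLP to 8.01 and 8.25 CPM in FLP_TET (log2 fold change -1.56, SE 0.30, edgeR adjusted p = 0.044), a call lost with a replicate block (edgeR adjusted p = 0.0546), and without either FLP_TET sample or the first FLP sample (edgeR adjusted p from 0.336 to 0.629). DESeq2 gave no adjusted p for it. Without the second FLP sample 4 members were called, ANKRD12, NDC80, ROCK1 and YES1, the last 3 named after their values were seen, where 5.52% of all genes were; the lone FLP sample is then assumed to vary like the other groups. In the RPRD1B_FL line 0 members and 0% of all genes were called, while 3 members and 6.13% of all genes had an unadjusted p under 0.05; DESeq2 also called 0 members. The test of the difference between the 2 tetracycline effects called 0 members and 0% of all genes, with 1 member and 3.99% of all genes at an unadjusted p under 0.05; DESeq2 called 0 members. The members' median was -0.12 in the parent line and -0.10 in the RPRD1B_FL line, and it turned to 0.09 and 0.04 once counts were adjusted for transcript GC content. It was -0.20 in the parent line without the second FLP sample, and in the RPRD1B_FL line -0.19 and -0.04 without the first and the second RPRD1B_FL sample and -0.20 without the second RPRD1B_FL_TET sample. RPRD1A was at -0.01 in the parent line (SE 0.18, edgeR adjusted p = 0.978) and -0.85 in the RPRD1B_FL line (SE 0.21, edgeR adjusted p = 0.443), and the difference of the 2 was -0.84 (SE 0.27, edgeR adjusted p = 0.991).

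**Figure D3:**
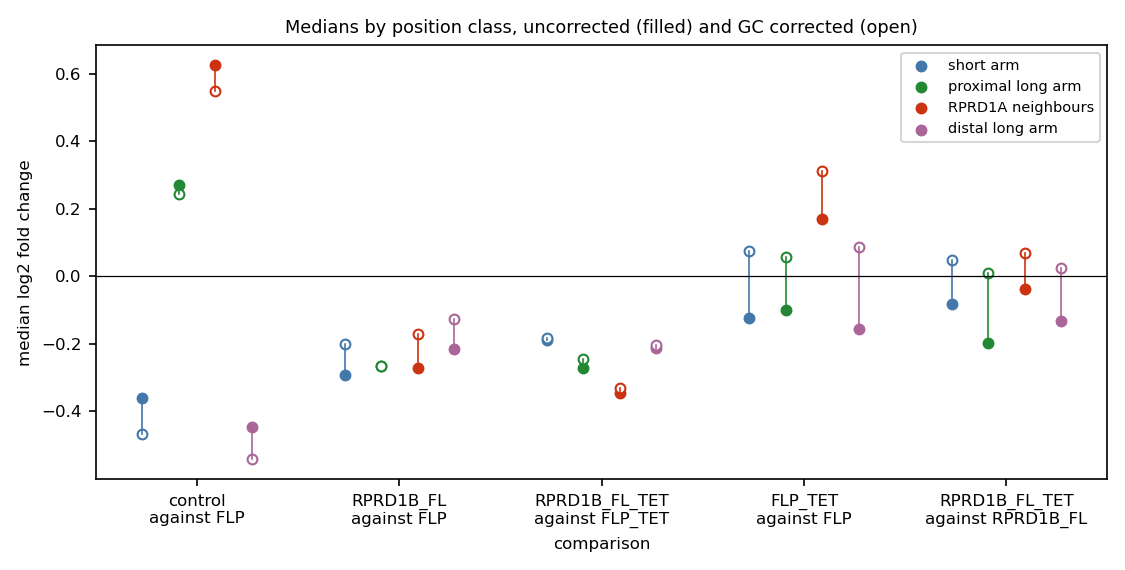
Median log2 fold change (vertical axis) of each position class in 5 contrasts (horizontal axis), before (filled) and after (open) adjusting each library for transcript GC content. In the line contrasts every class stays below 0, and in both tetracycline contrasts the short arm, proximal and distal medians move from below 0 to above it.

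RPRD1A itself fell in the groups labelled with it, and none of its 6 listed neighbours passed the test. RPRD1A was at 152 and 161 CPM in the control and at 14.2 to 26.8 CPM, with a median of 21.4 CPM, in the 8 samples labelled with it; the log2 fold changes against control were -2.98, -2.97, -3.05 and -2.60 in RPRD1A_KD, RPRD1A_RPRD1A_KD, RPRD1A_RPRD2_KD and RPRD1A_RPRD1B_RPRD2_KD. In the 8 HEK293T samples not labelled with it RPRD1A ran from 67.8 to 161 CPM, with a median of 90.2 CPM. Its log2 fold change was -0.77 (SE 0.22) in RPRD1B_KD, -0.88 (SE 0.22) in RPRD2_KD and -1.06 (SE 0.23) in RPRD1B_RPRD2_KD, none of them past the threshold (edgeR adjusted p from 0.629 to 1.00). With all 8 samples labelled with RPRD1A against the 8 others, the log2 fold change of RPRD1A was -2.22 (SE 0.13, edgeR adjusted p = 4.08e-08) and its groups did not overlap.

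In that pooled comparison 0 of 59 members passed the threshold, where 0.0676% of all genes did, and DESeq2 called 0, with no adjusted p for 8 members. At an unadjusted p under 0.05 there were 3 lower members (CEP76, ESCO1 and MIB1, named after their values were seen) and 0 higher, where 2.54% and 2.02% of all genes were. SLC39A6, the next member beyond the start of RPRD1A, ran from 107 to 140 CPM in the samples labelled with RPRD1A and from 99.6 to 142 CPM in the others. The ranges overlapped almost fully, and the log2 fold change was 0.04, with a 95% interval of -0.18 to 0.26. GALNT1 was at 0.00 (-0.21 to 0.21), C18orf21 at 0.04 (-0.25 to 0.33) and ELP2 at 0.00 (-0.18 to 0.18). MAPRE2 was at -0.24 (-0.54 to 0.07) and INO80C at -0.19 (-0.52 to 0.14). The members' median was -0.01 over all 59 and 0.00 over the 6 neighbours. In HEK293T, reads outside genes made up 45.6% to 48.5% of each first replicate and 40.5% to 42.1% of each second one; with the replicate number as a block 0 members were called, RPRD1A was at -2.22, and the neighbours ran from -0.23 for MAPRE2 (edgeR adjusted p = 0.678) to 0.04 for SLC39A6 (edgeR adjusted p = 0.93). For 0 members were all 8 samples labelled with RPRD1A below or above all 8 others, where 0.093% and 0.0338% of all genes were.

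**Figure D4:**
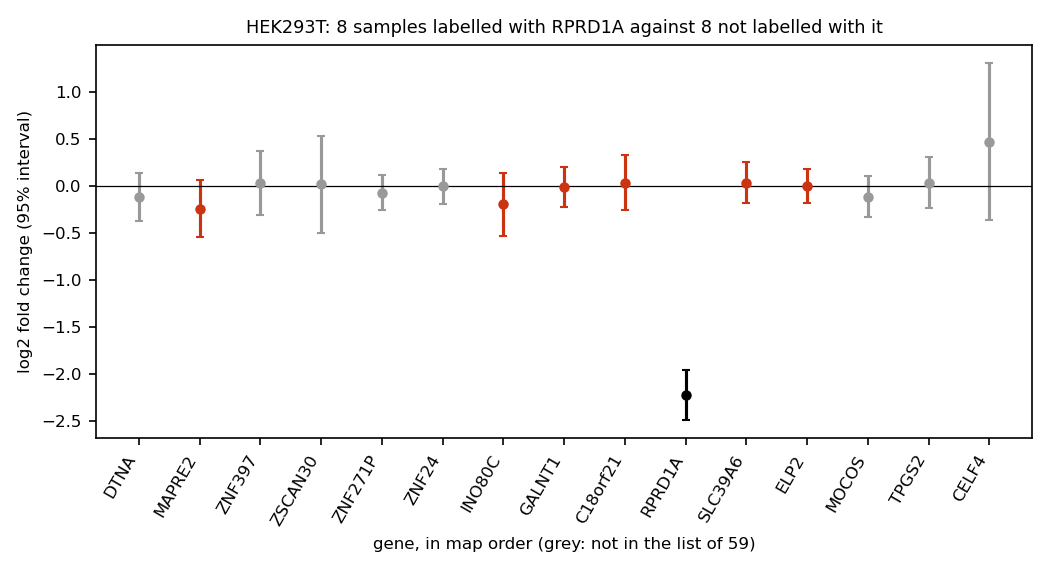
Log2 fold change with its 95% interval (vertical axis) for RPRD1A (black), its 6 listed neighbours (red) and nearby genes outside the list (grey), in map order, for the 8 HEK293T samples labelled with RPRD1A against the 8 others. RPRD1A is at -2.22, and every other interval includes 0.

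Each silenced group against the control gave 0 called members as well. The background was 0.00845% of all genes in RPRD1A_KD, RPRD1B_KD, RPRD2_KD and RPRD1A_RPRD2_KD and 0.0169% in RPRD1A_RPRD1A_KD, RPRD1B_RPRD2_KD and RPRD1A_RPRD1B_RPRD2_KD. DESeq2 also called 0 members in each. In simulated counts for RPRD1A_KD against control, the edgeR test recovered 33.3% of genes changed by 1 log2 unit and 84.8% of those changed by 2. A change of that size or smaller can therefore go uncalled, and 0 calls do not show unchanged levels. At an unadjusted p under 0.05 there were 0 members in RPRD1A_KD and RPRD1A_RPRD1B_RPRD2_KD, where 2.64% and 3.99% of all genes were. There was 1 in RPRD1B_KD, in RPRD2_KD and in RPRD1A_RPRD1A_KD, where 3.46%, 3.84% and 3.99% were, and 3 in RPRD1A_RPRD2_KD and RPRD1B_RPRD2_KD, where 7.07% and 2.51% were. The members' median log2 fold change lay between -0.02 and 0.04 in 6 of the 7 groups. It was -0.12 in RPRD1A_RPRD2_KD, which contains the library that stood apart, and 44 of 59 members were below 0 there, where 50.7% of all genes were. Without the other RPRD1A_RPRD2_KD library, 6 members were called lower (MBD1, MYL12A, MYL12B, RNF138, SEH1L and TWSG1, named after their values were seen), where 4.66% of all genes were called in either direction, and without the library that stood apart 0 were. The lone sample left is assumed to vary like the other groups.

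Between HEK293T and Flp-In cells 19 of 59 members were called, where 33.4% of all genes were, a share near the background. The control siRNA group of HEK293T was set against FLP, a contrast that shares the FLP samples with those that chose the list; the cell line, the transfection and the preparation of the libraries cannot be told apart in it. On the short arm 8 of 25 members were lower in HEK293T and 0 higher, on the proximal long arm 1 of 17 was lower and 2 higher, beside RPRD1A 0 of 6 were lower and 3 higher, and on the distal long arm 4 of 11 were lower and 1 higher. Over the list this made 13 lower and 6 higher, where 17.4% and 16.1% of all 12803 genes tested were (edgeR, adjusted p under 0.05). The median log2 fold changes were -0.36, 0.27, 0.62 and -0.45 in map order, against -0.63 for the 128 other chromosome 18 genes and 0.02 for all genes; differences between these stretches were not tested. The proximal median was 0.14 without the second control sample and 0.02 without the second FLP sample, and the distal one -0.86 without the second control sample. The summed level of the 6 293-cell markers was 136 to 208 CPM in HEK293T and 552 to 756 CPM in Flp-In, and that of the 4 fibroblast markers 4.74 to 17.5 CPM and 2.23 to 6.08 CPM with COL1A2 and DCN at 0 throughout; their part in the result was not tested.

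Among adhesion genes, CDH2 (N-cadherin) was at 20.004 and 21.7 CPM in the control and 240 and 211 CPM in FLP, a log2 fold change of -3.43 (SE 0.21, edgeR adjusted p = 3.76e-12). All 16 HEK293T samples, at 20.004 to 35.8 CPM, lay below all 8 Flp-In samples, at 160 to 240 CPM. DSG2 (desmoglein), another cadherin, went the other way, at 76.1 and 72.7 CPM in the control against 36.1 and 36.1 CPM in FLP (1.04, SE 0.19, edgeR adjusted p = 0.000108). MYL12B, a regulatory light chain of non-muscle myosin, was at 134 and 133 CPM against 332 and 347 CPM (-1.35, SE 0.26, edgeR adjusted p = 0.000241); it is nearly identical in sequence to its neighbour MYL12A, and how reads were shared between them is not given in the sources used here.

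Of the genes of cell division, NDC80, a kinetochore protein, was at 18.9 and 22.2 CPM in the control and 66.9 and 34.4 CPM in FLP (-1.28, SE 0.31, edgeR adjusted p = 0.00258). Over all samples its groups overlapped, at 12.7 to 32.4 CPM in HEK293T and 20.2 to 66.9 CPM in Flp-In, and without the first FLP sample the call was lost (edgeR adjusted p = 0.0995). HAUS1, a subunit of the augmin complex of the spindle, was higher in HEK293T, at 116 and 80.7 CPM against 42.6 and 36.4 CPM (1.31, SE 0.25, edgeR adjusted p = 0.000194). ESCO1 was higher too, at 8.89 and 14.6 CPM against 6.84 and 2.87 CPM (1.35, SE 0.43, edgeR adjusted p = 0.0169), a call lost without the second control or the second FLP sample (edgeR adjusted p = 0.264 and 0.252). SMAD4, the shared partner of receptor-regulated SMADs, was at 23.9 and 17.3 CPM against 48.7 and 41.6 CPM (-1.14, SE 0.25, edgeR adjusted p = 0.00111), and IMPA2 at 4.45 and 3.99 CPM against 12.5 and 15.2 CPM (-1.72, SE 0.47, edgeR adjusted p = 0.00647), lost without the second control or the second FLP sample (edgeR adjusted p = 0.0566 and 0.0507). SMAD2 was called lower as well, at 29.5 and 36.8 CPM against 46.4 and 58.2 CPM (-0.66), a call lost without the first control or the second FLP sample (edgeR adjusted p = 0.137 and 0.195). The other 7 members called lower had log2 fold changes from -1.11 to -0.54. Among them, and named after their values were seen, VAPA lost its call without each of the 4 control and FLP samples (edgeR adjusted p from 0.0597 to 0.161), and RNMT without the count filter (edgeR adjusted p = 0.0599) and without either FLP sample or the second control (edgeR adjusted p from 0.0537 to 0.181).

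GALNT1, C18orf21, RPRD1A and SLC39A6, all called higher in the HEK293T control than in FLP, were adjacent in map order among the genes tested. INO80C and ELP2, on either side of them, were not called. SLC39A6 was at 111 and 136 CPM in the control and 48.7 and 48.4 CPM in FLP (log2 fold change 1.35, SE 0.21, edgeR adjusted p = 1.6e-05), and its 16 HEK293T samples, from 99.6 to 142 CPM, were all above the 8 Flp-In samples, from 37.7 to 57.6 CPM. C18orf21 was at 21.7 and 27.1 CPM against 11.4 and 8.31 CPM (1.33, SE 0.31, edgeR adjusted p = 0.00173), and GALNT1 at 65.6 and 66.5 CPM against 40.3 and 31.0 CPM (0.90, SE 0.21, edgeR adjusted p = 0.00189). For both, the families did not overlap, although the call of GALNT1 was lost without the second FLP sample (edgeR adjusted p = 0.0503). ELP2 and INO80C had log2 fold changes of 0.34 and 0.35 that did not pass the threshold (edgeR adjusted p = 0.183 and 0.397), and MAPRE2 was at -0.08 (edgeR adjusted p = 0.849). SLC39A6 and ELP2 are transcribed away from each other, from chr18 positions 36129385 and 36129444 in GENCODE (GRCh38), and the difference between their fold changes was not tested. RPRD1A was at 152 and 161 CPM against 64.3 and 49.0 CPM (1.48, SE 0.21, edgeR adjusted p = 6.51e-06). In RPRD1B_KD, RPRD2_KD and RPRD1B_RPRD2_KD, also not labelled with RPRD1A, it ran from 67.8 to 99.9 CPM. That is nearer to the 8 Flp-In samples, at 25.4 to 64.3 CPM, so the size of this difference rests on the control samples.

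Some nearby genes outside the list gave similar values. MOCOS, which sulfurates the molybdenum cofactor, was at 32.2 and 29.3 CPM against 9.89 and 8.60 CPM (1.73, SE 0.27, edgeR adjusted p = 1.8e-05), and ZNF271P at 114 and 86.5 CPM against 41.8 and 37.6 CPM (1.33, SE 0.22, edgeR adjusted p = 3.25e-05). ZNF24 was at 0.48 (edgeR adjusted p = 0.048), a call lost with DESeq2, with RLE size factors, with GC correction, under every other filter tried, when only those groups were fitted and without each of the 4 libraries, and ZNF397, ZSCAN30, TPGS2 and CELF4 were at 0.77, 1.06, 0.55 and 1.91 without passing the threshold. DTNA, on the short arm side of MAPRE2, was at -0.16. FHOD3 and ZNF396 did not pass the filter on low counts. Between RNF138 and PIK3C3, 20 genes were tested, RPRD1A and its listed neighbours among them, and 15 were above 0. Of the 20, 8 were called higher, where 16.1% of all genes were. GALNT1, C18orf21, SLC39A6 and RPRD1A are among these 8. Only 1, NOL4, was called lower, at -2.21, where 17.4% of all genes were. Across all samples 5 of 59 members (DSG2, GALNT1, C18orf21, SLC39A6 and HAUS1) were higher in every HEK293T sample than in every Flp-In sample, where 8.7% of all genes were, and 7 were lower in every one, where 11.8% of all genes were.

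**Figure D5:**
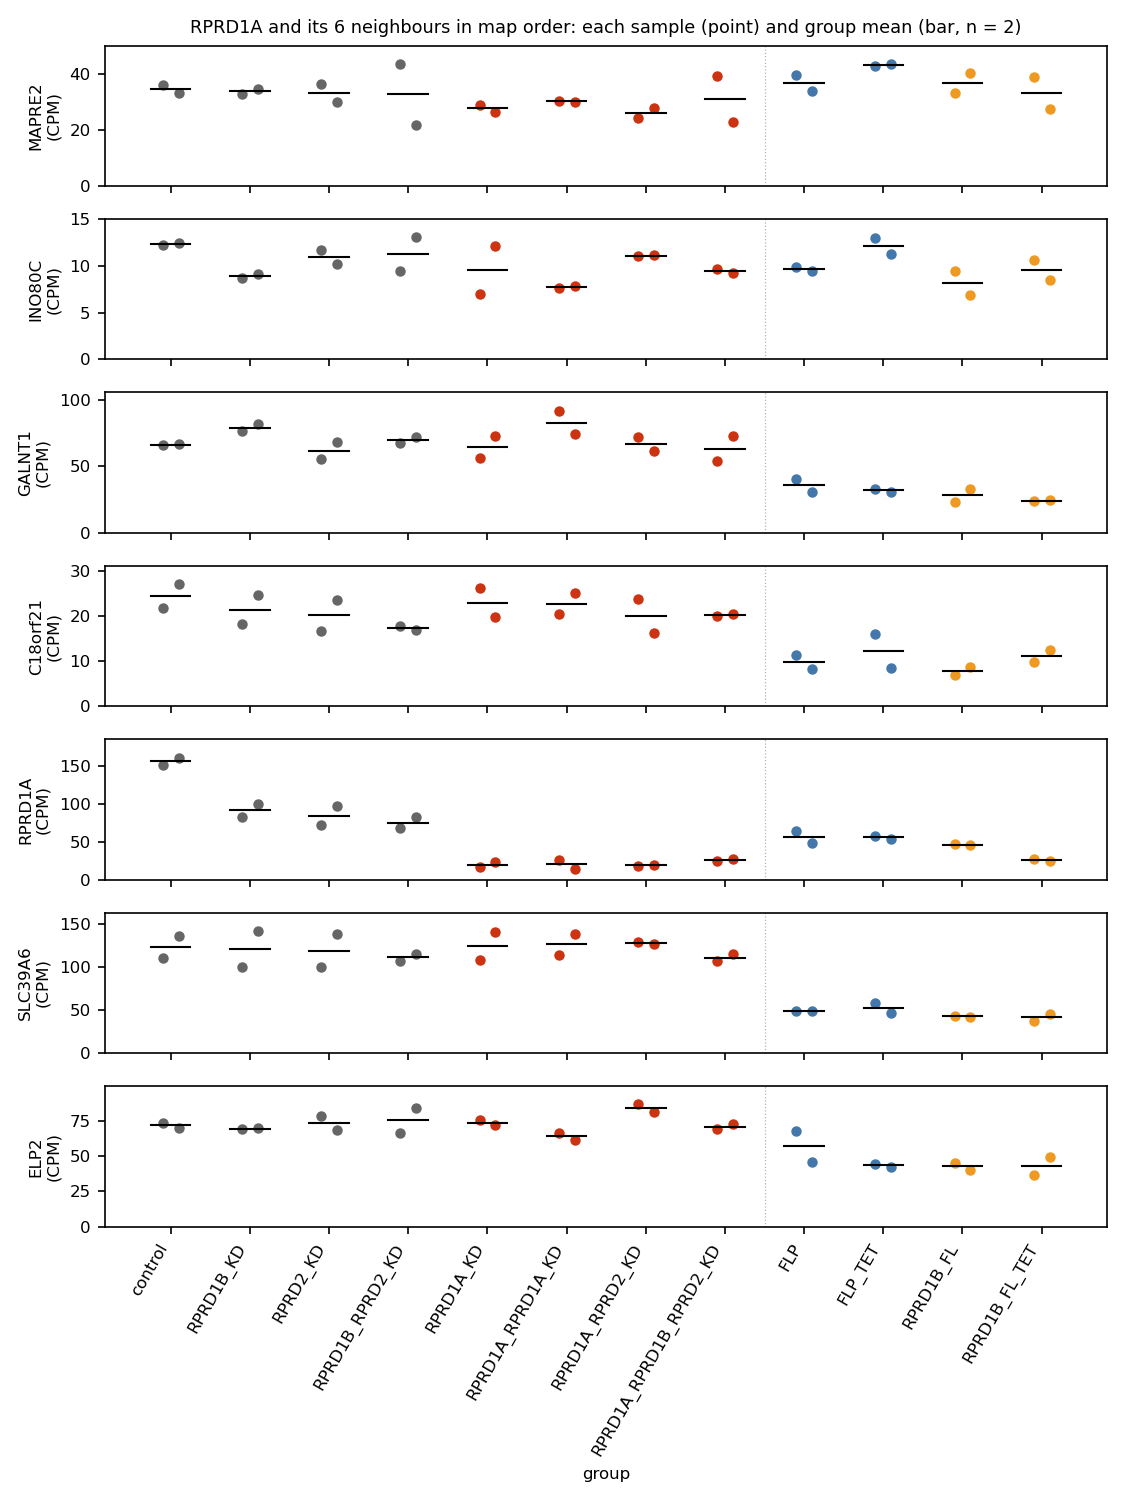
CPM (vertical axes) of RPRD1A and its 6 listed neighbours in map order, in each of the 24 samples (points) by group, with group means (bars, n = 2). GALNT1, C18orf21 and SLC39A6 are higher in all 16 HEK293T samples, left of the dotted line, than in the 8 Flp-In samples, while MAPRE2 and INO80C overlap; RPRD1A is lower in the 8 samples labelled with it than in the 8 other HEK293T samples.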

How the data were processed

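The members, gene lists and position classes were chosen with earlier results of these data known. The authors deposited raw read counts per gene name for 24 samples. Per the submitters' processing notes the tools were FastQC, STAR, HTSeq and DESeq2 with build GRCh38; versions, the strand setting and the annotation are not given in the sources used here. Overlapping genes on opposite strands (USP14 and THOC1, or CEP76 and PSMG2, for example) therefore cannot be told apart with certainty. The 5 closing rows of each table, which name no gene, were left out; they held between 30.4% and 48.5% of the reads. Of 58138 gene names, 54848 matched 1 gene of GENCODE 29, which gave positions and transcript GC content.

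Tests were two-sided, with edgeR 4.0.16 (R 4.3.3): genes kept by filterByExpr (minimum count 10, total 15), TMM scaling, a quasi-likelihood test and Benjamini-Hochberg adjustment over all genes, called at an adjusted p under 0.05. HEK293T (16 samples, 11834 genes), Flp-In (8 samples, 11948 genes) and all samples together (24, for control against FLP) were fitted separately; CPM are on 1 scale over all 24. Groups came from the labels. The named genes were RPRD1A, its 6 neighbours, in each other position class the 3 members with the lowest and the 2 with the highest mean of both line contrasts, up to 5 members called in each direction, and 10 nearby non-members. Only the edgeR test was tried on simulated counts. This was done for RPRD1A_KD against control, the pooled RPRD1A comparison, FLP_TET against FLP and control against FLP. Alternatives were RLE size factors, DESeq2 1.42.0, no count filter, a mean count of 50, a replicate block, GC correction, a fit of the compared groups alone, and leaving out each replicate; 3 more were chosen after seeing the data. The floor of 3 counts covers counting error only; the 95% intervals come from the edgeR fit and include the spread between samples. One marker list is not reported here.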

Additional observations from a re-analysis of the deposited data

How the results depend on the processing

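The list was chosen on both line contrasts in these same libraries, so a members' median below 0 there was built in. That median stayed below 0 under every alternative run, which adds no support. With the RPRD1B_FL_TET and FLP_TET libraries left out in turn it ran from -0.33 to -0.15, and in the untreated contrast from -0.32 to -0.22. The tetracycline medians depended on the GC content of transcripts. With GC correction they were 0.086 for both the members and the distal long arm in the parent line, and 0.038 for the members, 0.011 for the proximal long arm and 0.048 for the short arm in the RPRD1B_FL line; the cause was not tested. Members called between FLP_TET and FLP numbered 1, but 0 with DESeq2 (which gave no adjusted p for 47 members, ANKRD12 among them), 3 without the count filter, 0 at a mean count of 50 or more (where fewer genes are tested), 5 when only those groups were fitted, and 0 to 4 with each library left out. RPRD1A_RPRD2_KD had 0 called members, 1 (MYL12B) without the count filter, and 0 to 6 with a library left out. Members called between control and FLP numbered 19, where 33.4% of all genes were called. The shares of all genes called under the other settings are not printed here, so these counts are not read as results about the members.

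For the neighbours in the pooled RPRD1A comparison, leaving out each library gave -0.064 to 0.043 for GALNT1, -0.038 to 0.11 for C18orf21, -0.018 to 0.10 for SLC39A6 -0.041 to 0.046 for ELP2, -0.35 to -0.089 for MAPRE2 and -0.31 to -0.11 for INO80C (log2 fold changes). GALNT1 was at 0.0029 without the count filter and at 0.038 with GC correction.

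Same-numbered samples deviated together in HEK293T (mean correlation 0.336 over 28 pairs of groups, from -0.0115 to 0.527), with 26 pairs over 0.1. Both exceptions, at -0.0115 and 0.0479, involve RPRD1A_RPRD2_KD, which contains the library that stood apart. In Flp-In the 6 pairs ran from -0.352 to 0.454 (mean -0.0175). Since not every pair went together, the numbers were not taken to pair samples. In HEK293T, however, the share of reads outside genes also separated the 2 numbers. With the replicate block 0 members were called in the pooled RPRD1A comparison, with MAPRE2 at -0.23 and INO80C at -0.19. The members called between FLP_TET and FLP fell to 0 with the block, and those between control and FLP numbered 21. No share of all genes is printed beside these counts, so nothing about the members is read from them. The members' medians in the line contrasts were -0.26 and -0.22 with the block. With GC correction and the replicate block the medians were 0.080 for both the members and the distal long arm in the parent line under tetracycline, 0.034 for the members and 0.049 for the short arm in the RPRD1B_FL line, and GALNT1 was at 0.036. With the replicate block and without the second RPRD1A_RPRD2_KD library, GALNT1 was at 0.047. A block with crossed numbers, added after seeing the data, left the line medians at -0.27 and -0.23. Low counts limit several members: per library TGIF1 had 1 to 22 counts, CEP76 4 to 26, IMPA2 4 to 53 and ESCO1 4 to 52.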
